A study of Mus musculus with 23 samples.

Results

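The genes described here are the Rab genes, chosen as every gene whose symbol is Rab followed by a number and at most one letter. There were 59 of them among the 47729 genes of the count table, and 54 of the 59 had enough counts to be tested, against 19597 of all genes. Rab proteins are small GTPases that sit on the membranes of vesicles and organelles. Each switches between a GTP-bound and a GDP-bound form, and in the GTP-bound form recruits the tethers and motor proteins that carry a vesicle to its target membrane. Dendritic cells use them to move internalised antigen through endosomes, phagosomes and lysosomes, to recycle MHC molecules to the surface, and to secrete cytokines and granule contents.

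Libraries were made from RNA of sorted spleen dendritic cells of wild type BALB/c mice, 8 from 2 pools of untreated mice and 15 from 4 pools of mice labelled TLI, an abbreviation that the labels do not expand. The sort used CD8 and CD172, a surface receptor encoded by Sirpa. It gave DC1a cells (CD8hi CD172-), DC1b cells (CD8Int CD172+), DC2 cells (CD8lo CD172hi) and DC3 cells (CD8- CD172lo), each from every pool, except that TLI pool 2 had no DC2 library here. Mice were pooled before sorting, their number per pool and age are not given in the labels, and a pool is the replicate, so n counts pools. The untreated pools and TLI pools 1 and 2 belonged to batch 1 by their labels, and TLI pools 3 and 4 to batch 2, so that a term for batch in the fits was estimated from TLI libraries alone.

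Total counts per library lay between 19256447 and 36997890, and 3 counts, taken as the floor of detection, equalled 0.0862 to 0.147 CPM (counts scaled to a common library size by TMM). The subsets carried their sorting markers in part. Sirpa stayed under 1 CPM in untreated and TLI DC1a and in untreated DC3 libraries, and Cd8a, at 375 to 913 CPM in TLI DC1a, was at 0.363 CPM in 1 TLI DC1b library. DC3 libraries held Xcr1, a chemokine receptor of cross-presenting dendritic cells, at 132 to 436 CPM. Genes of other cell types were present as well. The 5 markers of plasmacytoid dendritic cells summed to 2386 to 2746 CPM in untreated DC1b and to at most 202 CPM in every other group. The 8 neutrophil markers summed to 1445 to 23370 CPM in TLI DC1b, and the 6 erythroid markers to 18564 to 138351 CPM in the 7 libraries of TLI pools 1 and 2 against 171 to 7925 CPM in those of pools 3 and 4. In sorted bulk samples fewer cells of a type and less RNA per cell cannot be told apart, and the part that such RNA has in the Rab values below was not tested except where a value is given.

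The Rab genes together took 1892 to 4112 CPM of a library, and 37 to 50 of the 59 had more than 3 counts in any one library. Their levels were uneven. A mean of at least 100 CPM over the 23 libraries was reached by 9 genes, 23 lay between 10 and 100 CPM, 15 between 1 and 10 CPM and 12 under 1 CPM, and 31 genes had more than 3 counts in all 23 libraries. Per kilobase of exon, the scale on which genes can be compared, Rab2a, which works between the endoplasmic reticulum and the Golgi, had the highest mean level at 103 CPM per kilobase. Rab32, a Rab of lysosome-related organelles, followed at 78.9, Rab11a of the recycling endosome at 63.8, Rab24 of autophagy at 62.4 and Rab7 of the late endosome at 45.4 CPM per kilobase. These 5 genes held 45.8% and the 10 highest 68.5% of the summed level per kilobase. Rab9b was at 0 counts in every library, and Rab33a, Rab3b, Rab15 and Rab17 were the other genes too low to be tested.

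**Figure D1:**
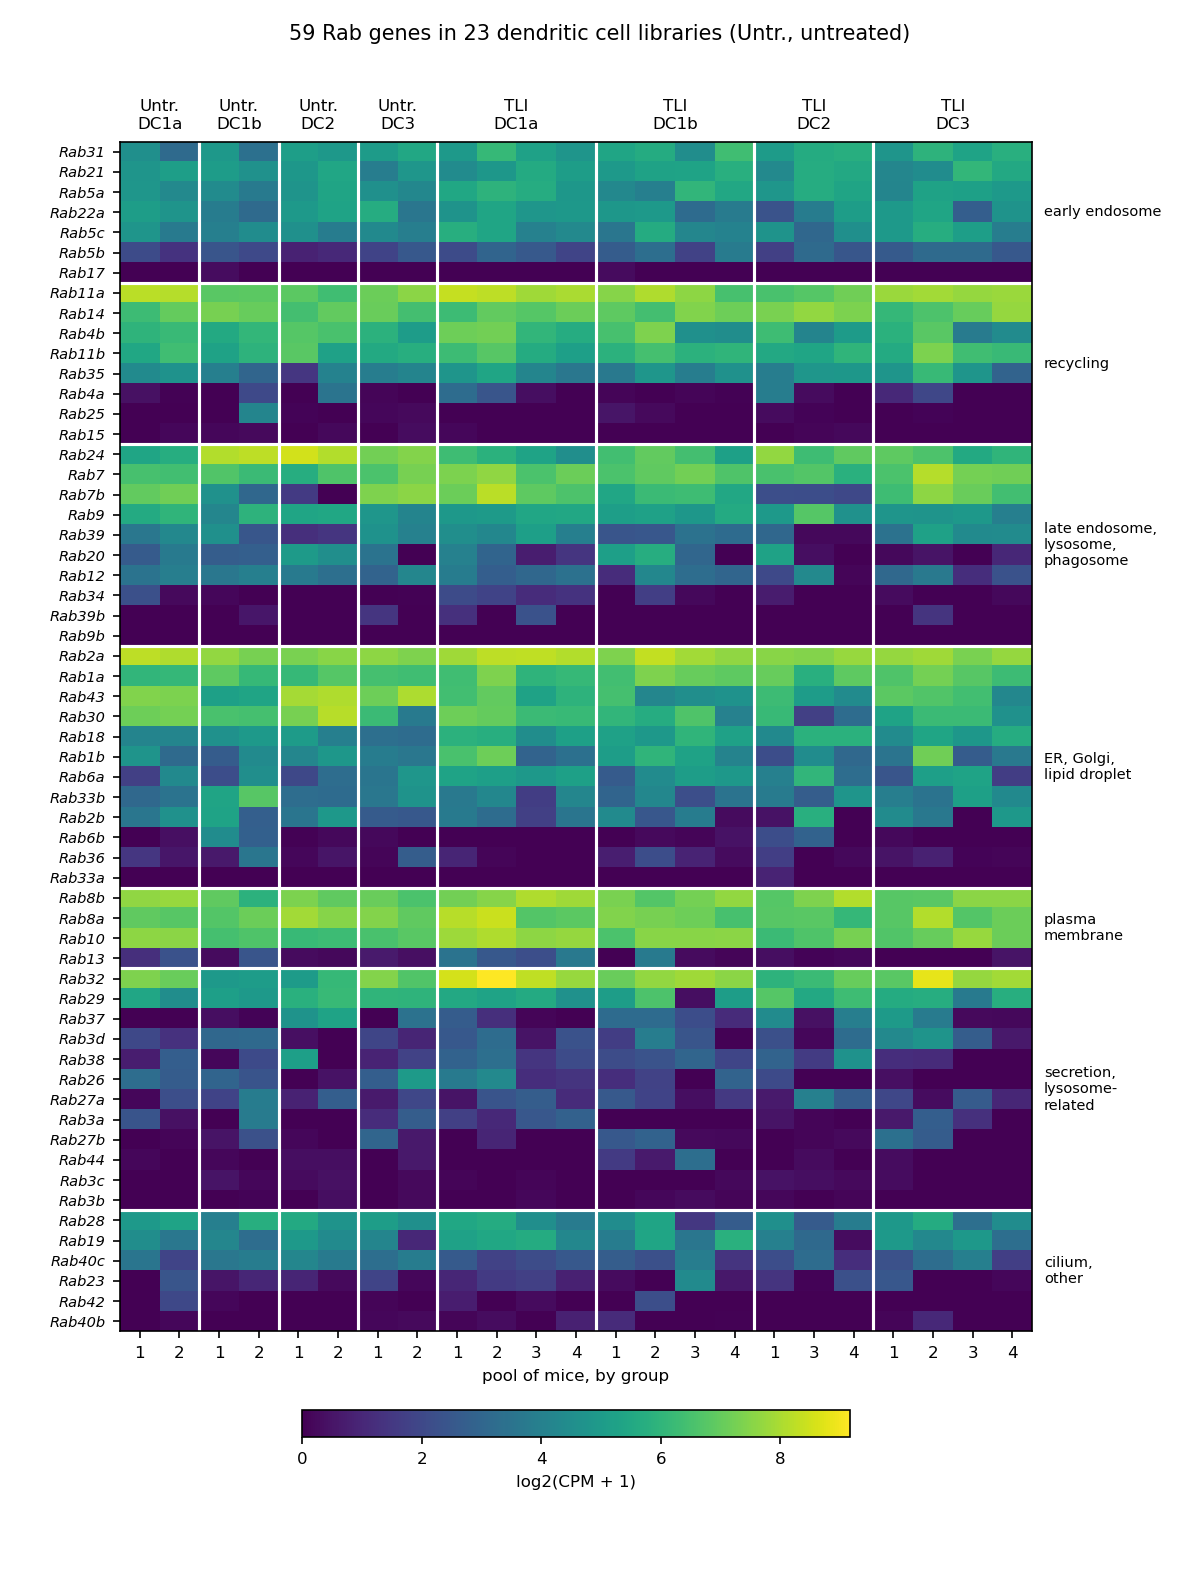
Level of each of the 59 Rab genes (rows, grouped by the compartment they serve and sorted by mean level) in each of the 23 libraries (columns, grouped by treatment and subset and numbered by pool), as log2(CPM + 1), with the colour scale below. Rab7b is dark in all 5 DC2 libraries, and the genes at the foot of each block were near 0 in most libraries.

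Within families of close relatives 1 member usually carried most of the level per kilobase. Rab2a stood at 103 against 3.29 CPM per kilobase for Rab2b and was the higher of the pair in 23 of 23 libraries. Rab4b, which acts in rapid recycling from early endosomes, stood at 34.5 against 1.12 CPM per kilobase for Rab4a, also in 23 of 23 libraries. Rab11a exceeded Rab11b by 5.94 times on this scale in 23 of 23 libraries, and Rab32 exceeded Rab38, its partner in the delivery of cargo to lysosome-related organelles, by 23.7 times in 22 of 23. Of the early endosome group, Rab5c and Rab5a (10.9 and 6.14 CPM per kilobase) each exceeded Rab5b (1.13) in 23 of 23 libraries. The members of 1 pair were alike in mean level. Rab8a and Rab8b, which carry vesicles to the plasma membrane, stood at 32.5 and 34.0 CPM per kilobase, and Rab8a was the higher in 12 libraries and Rab8b in 11. Reads that fit equally well to near-identical genes can be lost or divided in counting, and the part of this in these ratios was not tested.

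**Figure D2:**
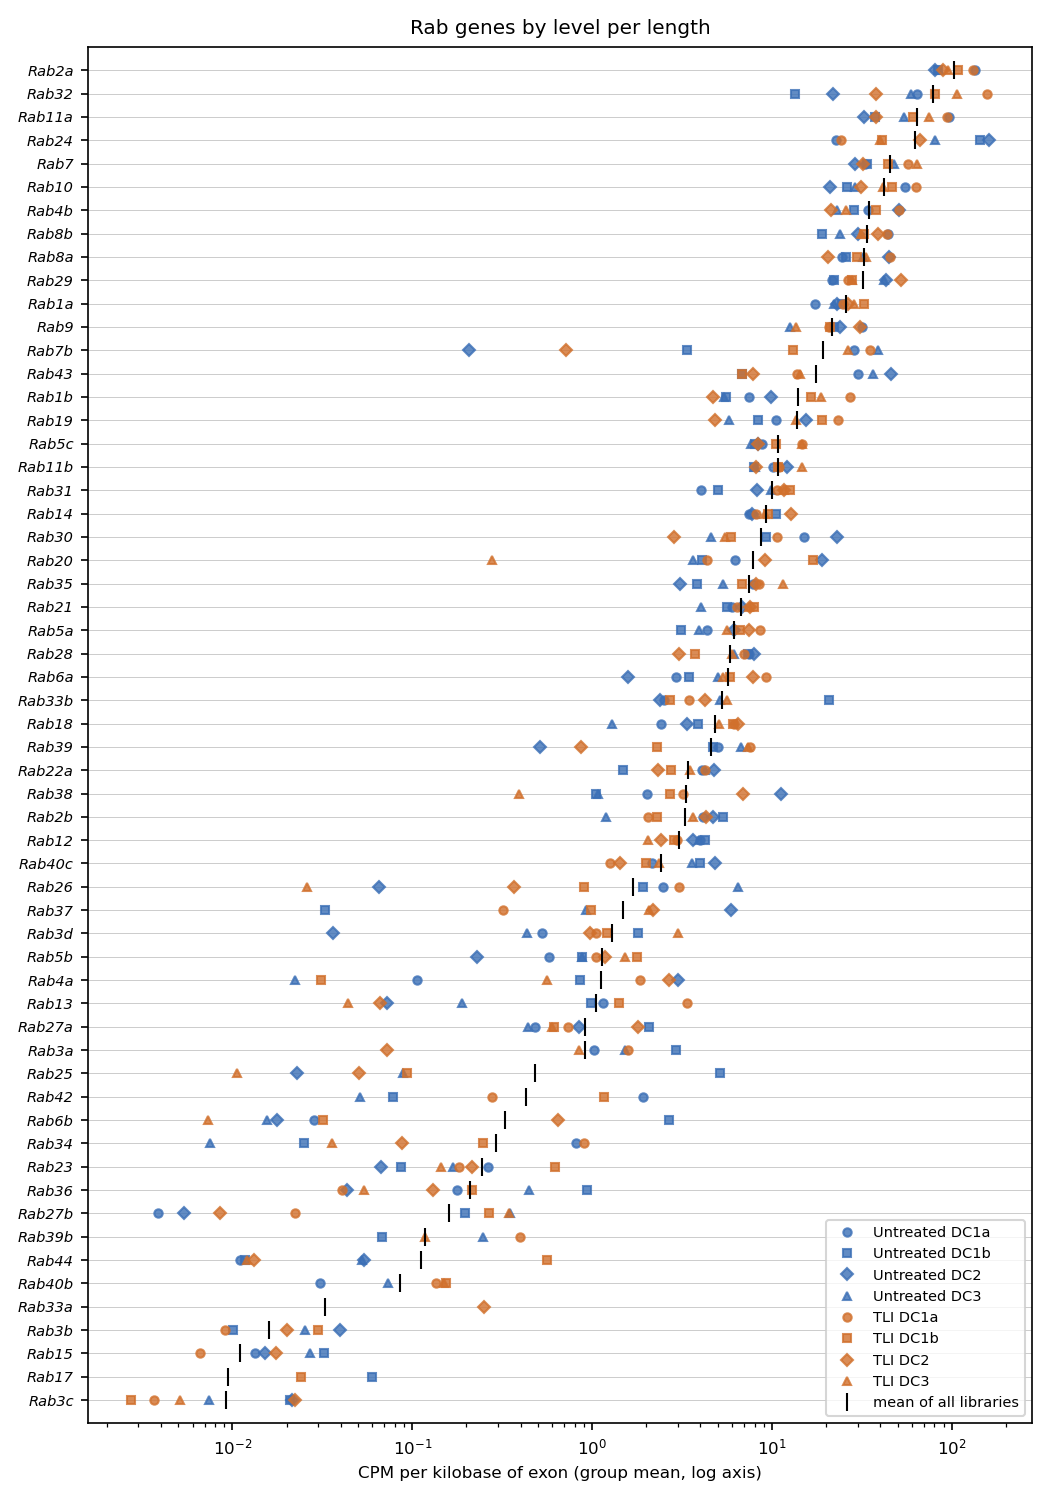
Mean level of each Rab gene per kilobase of exon in each of the 8 groups (log axis, 1 marker per group, colour for treatment and shape for subset), with a black bar for the mean of all 23 libraries. Group means of 0 and Rab9b, at 0 throughout, cannot be drawn on a log axis. Rab2a leads at 103 CPM per kilobase, and the 2 DC2 markers of Rab7b lie far to the left of its other groups.

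The first comparison asked which Rab genes differed among the 4 subsets. In untreated mice Rab24 and Rab7b passed the test over all 4 subsets, with adjusted p of 0.00408 and 0.00598 (edgeR's quasi-likelihood test, Benjamini-Hochberg adjustment over all genes tested, called where the adjusted p was under 0.05). These are 2 of 54 Rab genes, where 2.37% of all genes were called. In TLI mice the same 2 genes passed, Rab7b with an adjusted p of 0.00976 and Rab24 with 0.0237, where 3.22% of all genes were called. Both serve the late endosome, lysosome, phagosome and autophagy group, of which 9 of 10 members were tested. Rab24 kept its TLI call in 11 of the 15 fits without 1 TLI library and lost it without DC1a pool 2 (adjusted p = 0.0616), DC1a pool 4 (0.0780), DC2 pool 1 (0.0602) or DC2 pool 4 (0.0887), and with the pool as a fixed replicate block (0.0640). It was also lost without the filter on low counts (0.0745), without the batch term (0.290), on TLI libraries alone (0.0843) and in batch 1 (0.373) or batch 2 alone (0.173). Rab7b lost its TLI call without DC2 pool 1 (0.0556) and in batch 1 (0.531) or batch 2 alone (0.182), and its untreated call on untreated libraries alone (0.126). Rab24 lost its untreated call without DC1a pool 1 (0.0787) and without the batch term (0.125).

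Rab7b, a relative of Rab7 that acts in traffic from endosomes to the trans-Golgi network and in the handling of Toll-like receptors by myeloid cells, was nearly missing from DC2 cells. The gene (ENSMUSG00000052688) lies on the plus strand of chromosome 1 at 131688695 to 131715439 (GRCm38). In untreated mice it stood at 124 and 142 CPM in DC1a and at 169 and 190.4 CPM in DC3, but at 23.8 and 7.44 CPM in DC1b and at 1.91 and 0 CPM in DC2. In TLI mice it stood at 138, 297, 118 and 96.6 CPM in DC1a pools 1 to 4 and at 77.8, 196, 132 and 81.7 CPM in DC3. TLI DC1b libraries held 42.1, 75.1, 79.6 and 44.5 CPM, and TLI DC2 libraries 3.59, 3.45 and 2.95 CPM. All 5 DC2 libraries were below every library of the other subsets, and the means of DC1b lay between those of DC2 and of the DC1a and DC3 cells in both treatments, although 1 TLI DC3 library (77.8 CPM) was below 1 TLI DC1b library (79.6 CPM).

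The mean of Rab7b in DC1a was 139 times that in DC2 in untreated mice and 48.8 times in TLI mice. The fitted log2 fold change of DC2 against DC1a was -7.10 ± 1.23 (SE, n = 2 and 2, edgeR adjusted p = 0.00476) in untreated and -5.49 ± 0.92 (n = 3 and 4, adjusted p = 0.00210) in TLI mice, where the first depends on how the fit treats the library at 0. DC3 against DC2 gave 7.53 ± 1.25 (n = 2 and 2, adjusted p = 0.00588) and 5.11 ± 0.90 (n = 4 and 3, adjusted p = 0.00497). These 4 calls held without any 1 library and with the pool as a block, where an untreated arm reduced to 1 library is assumed to vary like the other groups. Without untreated DC2 pool 1 the DC2 library left is at 0, and the fitted values of -14.84 and 15.30 are no measure of size. Fitted on untreated libraries alone, the untreated differences had adjusted p of 0.0786 and 0.0925. With the TLI pools of batch 1 alone, which leave 1 DC2 library, the TLI difference between DC2 and DC1a was -5.92 and was not called. With those of batch 2 alone it was -4.93 (edgeR adjusted p = 0.0818). The TLI call of DC3 against DC2 was also lost with batch 1 alone and with batch 2 alone. DC1b against DC1a was -3.09 ± 1.01 in untreated mice (adjusted p = 0.231) and -1.36 ± 0.68 in TLI mice (adjusted p = 0.393), short of the threshold although no library overlapped. The 8 monocyte and macrophage markers summed to 4756 to 5309 CPM in untreated DC2 against 810.0 to 831 CPM in untreated DC1a. Most of this was Lyz2, at 5051 and 4313 against 741 and 749 CPM. Csf1r and Adgre1 were also higher in DC2, Ly6c2 overlapped, and Vcam1 was lower, at 1.83 and 1.40 against 18.5 and 22.5 CPM. The 9 DC1 markers summed to less in DC2, 462 to 478 against 3245 to 3643 CPM. The part of either list in the Rab7b difference was not tested.

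Rab7 itself, which directs the fusion of late endosomes and phagosomes with lysosomes, did not follow Rab7b. It stood at 88.6 and 82.3 CPM in untreated DC1a and at 50.8 and 99.8 CPM in untreated DC2, with overlapping libraries. Its log2 fold change of DC2 against DC1a was -0.18 ± 0.49 (adjusted p = 0.943) in untreated and -0.76 ± 0.38 (adjusted p = 0.310) in TLI mice. Per kilobase, Rab7b came to 0.787 to 0.975 of Rab7 in untreated DC1a, 0.694 to 1.01 in untreated DC3, 0.0555 to 0.133 in untreated DC1b and 0 to 0.0212 in untreated DC2. In TLI mice the ratio was 0.399 to 0.840 in DC1a, 0.319 to 0.491 in DC3, 0.255 to 0.351 in DC1b and 0.0186 to 0.0300 in DC2.

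Rab24, an atypical Rab with weak GTPase activity that takes part in autophagy, was lowest in DC1a and highest in DC2 by mean. The gene (ENSMUSG00000034789) lies on the minus strand of chromosome 13 at 55319743 to 55321946. Untreated DC1a libraries held 40.7 and 51.3 CPM, untreated DC1b 272 and 305, untreated DC2 372 and 278, and untreated DC3 147 and 177 CPM. The DC1a libraries were below all others and the DC3 libraries lay in between. TLI DC1a libraries held 78.7, 56.6, 38.7 and 22.2 CPM, TLI DC1b 83.1, 123, 85.7 and 36.1, TLI DC2 204, 78.5 and 121, and TLI DC3 117, 95.6, 46.0 and 63.1 CPM. The TLI ranges of DC2 and DC1a overlapped by 1 library of each, DC1a pool 1 of batch 1 standing above DC2 pool 3 of batch 2 by 0.171 CPM, and did not overlap within either batch.

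In untreated mice Rab24 was higher in DC1b than in DC1a by a log2 fold change of 2.65 ± 0.42 (n = 2 and 2, edgeR adjusted p = 0.00384), and it was the 1 Rab gene called in that comparison, in which 0.837% of all genes were, 0.52% as higher. The call was lost without either DC1a library, at adjusted p of 0.12 without pool 1 and 0.0640 without pool 2, and 0.111 without the batch term. DC2 exceeded DC1a by 2.82 ± 0.42 (n = 2 and 2, adjusted p = 0.00152) in untreated and by 1.64 ± 0.30 (n = 3 and 4, adjusted p = 0.00458) in TLI mice. The TLI difference was 1.59 within batch 1 (adjusted p = 0.128) and 1.85 within batch 2 (adjusted p = 0.0674), and without the batch term both calls were lost (0.0533 in untreated, 0.130 in TLI mice). The value of Rab24 is uncertain in one respect. By the annotation 62.4% of its exon bases are also exon of Prelid1, a mitochondrial lipid-transfer gene on the other strand, and no source used here states that the counting used strand, so reads of the shared bases could be of either gene. Prelid1 went the other way in untreated mice, at 204 to 338 CPM in DC1a and 147 to 179 CPM in DC2, and the ratio of Rab24 to Prelid1 was 0.121 to 0.251 in DC1a and 1.89 to 2.08 in DC2. The Prelid1 values and the ratio depend on how reads of the shared bases were divided between the genes, which was not tested.

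**Figure D3:**
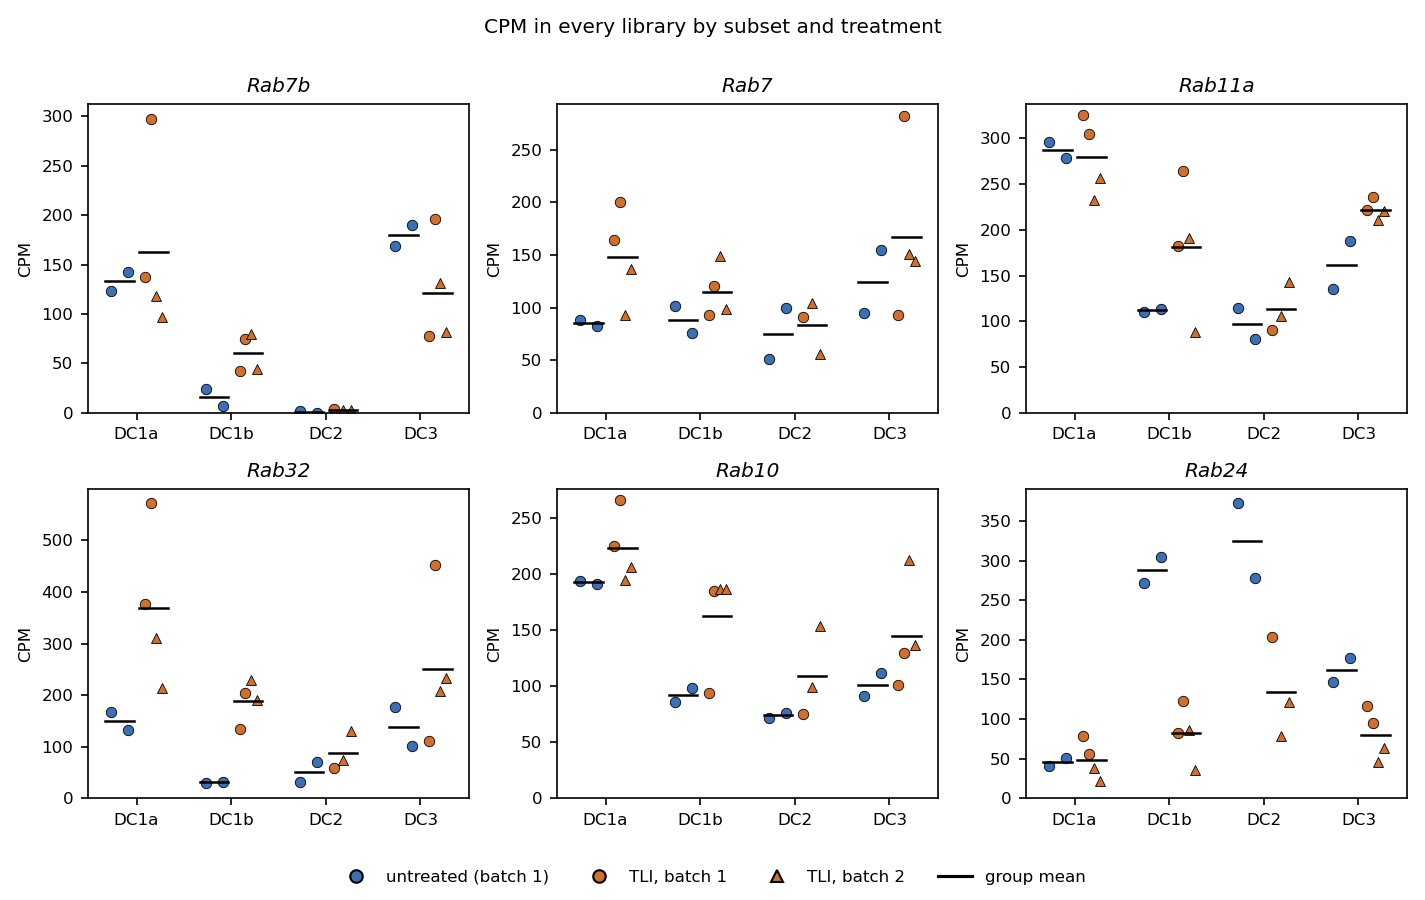
CPM of 6 Rab genes in every library by subset (blue circles untreated, orange circles TLI batch 1, orange triangles TLI batch 2, black bars group means). DC2 points of Rab7b lie at 0 to 3.59 CPM while Rab7 overlaps between subsets, the DC1a points of Rab11a, Rab32 and Rab10 lie above all DC2 points, and the DC1a mean of Rab24 is the lowest of the 4 subsets.

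In TLI mice Rab11a, Rab32 and Rab10 were lower in DC2 than in DC1a cells, and in untreated mice Rab11a was the one of them called. Rab11a (ENSMUSG00000004771) lies on chromosome 9 at 64715299 to 64737758, Rab32 (ENSMUSG00000019832) on chromosome 10 at 10545002 to 10558265 and Rab10 (ENSMUSG00000020671) on chromosome 12 at 3247428 to 3309969, all on the minus strand. Their promoters are shown as those of genes called lower in DC2. Rab7b, also called lower in DC2, had no promoter sequence in the set used and is missing here. Each window holds the 250 bases before the RefSeq start on GRCm38.p6, read 5′ to 3′ on the gene's strand, and that of Rab24, which was called higher in DC2, follows for contrast. Capitals mark matches, on either strand, to 7 motifs searched, which were GAGGAAGT (a box bound by PU.1), CCGGAAGT (an ETS site), an ETS and IRF composite element, the interferon-stimulated response element, TGANTCA (an AP-1 site), CACGTG (an E-box) and GGGCGG (a GC box).
Rab11a promoter, chr9:64737757-64738006, minus strand: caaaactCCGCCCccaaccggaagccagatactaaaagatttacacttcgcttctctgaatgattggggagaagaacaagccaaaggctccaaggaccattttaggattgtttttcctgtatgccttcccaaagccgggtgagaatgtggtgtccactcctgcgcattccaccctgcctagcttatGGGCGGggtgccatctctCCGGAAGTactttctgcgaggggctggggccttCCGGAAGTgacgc
Rab32 promoter, chr10:10558208-10558457, minus strand: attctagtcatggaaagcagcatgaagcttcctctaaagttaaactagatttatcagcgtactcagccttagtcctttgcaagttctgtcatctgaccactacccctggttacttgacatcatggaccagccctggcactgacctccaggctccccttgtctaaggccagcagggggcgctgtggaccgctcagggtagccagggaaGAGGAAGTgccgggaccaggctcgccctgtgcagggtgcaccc
Rab10 promoter, chr12:3309970-3310219, minus strand: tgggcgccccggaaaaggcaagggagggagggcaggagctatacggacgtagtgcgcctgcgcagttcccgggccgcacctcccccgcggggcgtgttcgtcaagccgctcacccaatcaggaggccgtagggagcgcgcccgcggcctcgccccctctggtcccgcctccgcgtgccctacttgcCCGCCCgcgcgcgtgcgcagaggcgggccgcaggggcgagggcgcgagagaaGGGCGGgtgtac
Rab24 promoter, chr13:55321981-55322230, minus strand: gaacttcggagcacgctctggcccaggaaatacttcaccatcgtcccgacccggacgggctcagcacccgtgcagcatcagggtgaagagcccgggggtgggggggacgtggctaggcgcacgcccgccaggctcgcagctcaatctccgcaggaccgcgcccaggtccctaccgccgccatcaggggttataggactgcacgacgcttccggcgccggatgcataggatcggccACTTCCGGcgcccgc

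The promoter of Rab11a holds 2 ETS sites, 46 and 13 bases before the start, and 2 GC boxes, whereas that of Rab32 holds a PU.1 box 43 bases before the start and no GC box. Rab10 has 2 GC boxes and Rab24 1 ETS site on the strand opposite to the gene, 15 bases before its start. No motif of the 7 was common to Rab11a, Rab32 and Rab10. Of the 32851 RefSeq windows of the same length 2.44% hold the PU.1 box, 2.88% the ETS site and 32.7% the GC box. A window was matched for 48 of the 59 Rab genes, of which 2 hold the PU.1 box, 2 the ETS site, 4 the E-box and 33 (68.8%) the GC box. A match to letters is not evidence of binding.

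Rab11a, which returns cargo from the recycling endosome to the surface and in dendritic cells supplies MHC class I molecules to phagosomes, stood at 296 and 278 CPM in untreated DC1a. It was at 111 and 114 CPM in untreated DC1b, 115 and 80.2 in untreated DC2 and 136 and 187 in untreated DC3. TLI DC1a libraries held 325, 305, 233 and 256 CPM, TLI DC1b 182, 264, 191 and 88.8, TLI DC2 90.99, 105 and 143, and TLI DC3 221, 236, 210.4 and 221 CPM. DC1a exceeded DC2 without overlap in both treatments. DC2 against DC1a was -1.56 ± 0.37 on the log2 scale (n = 2 and 2, edgeR adjusted p = 0.0360) in untreated and -1.24 ± 0.29 (n = 3 and 4, adjusted p = 0.0230) in TLI mice. The untreated call did not hold without any 1 of the 4 libraries, at adjusted p of 0.211 and 0.143 without DC1a pools 1 and 2 and 0.101 and 0.336 without DC2 pools 1 and 2, with the pool as a fixed block (0.0591), without the filter (0.129) or without the batch term (0.112). The TLI call was lost without DC1a pool 1 (0.0542), DC1a pool 4 (0.0626), DC2 pool 1 (0.206) or DC2 pool 3 (0.0761), with the pool as a fixed block (0.0533), without the filter (0.0650) and on TLI libraries alone (0.0522).

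Rab32, which serves lysosome-related organelles and restricts some bacteria in phagocytes, stood at 167 and 133 CPM in untreated DC1a, 30.2 and 32.5 in DC1b, 31.9 and 69.7 in DC2 and 177 and 101 in DC3. TLI DC1a libraries held 377, 571, 311 and 214 CPM and TLI DC2 59.4, 74.3 and 131 CPM, without overlap. TLI DC1b lay at 134 to 229 CPM and TLI DC3 at 112 to 452 CPM. DC2 against DC1a was -2.01 ± 0.48 (n = 3 and 4, edgeR adjusted p = 0.0280) in TLI mice, and -1.56 ± 0.59 (adjusted p = 0.245) in untreated mice. The TLI call was lost without DC1a pool 1 (0.0525), pool 2 (0.0599) or pool 3 (0.0605), without DC2 pool 1 (0.162) or pool 3 (0.0970), and on TLI libraries alone (0.0507). In untreated DC1b the gene was below both DC1a libraries by -2.26 ± 0.60 (adjusted p = 0.106), where the plasmacytoid markers were high.

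Rab10, a Rab of transport to the plasma membrane that also moves Toll-like receptor 4 to the surface of macrophages, stood at 194 and 191 CPM in untreated DC1a, 86.02 and 98.004 in DC1b, 72.0 and 76.1 in DC2 and 91.1 and 112 in DC3. TLI DC1a libraries held 225, 266, 195 and 206 CPM and TLI DC2 75.3, 99.3 and 154 CPM, without overlap. DC2 against DC1a was -1.14 ± 0.29 (n = 3 and 4, edgeR adjusted p = 0.0394) in TLI and -1.38 ± 0.37 (adjusted p = 0.0683) in untreated mice. The TLI call was lost without DC1a pool 1 (0.0856), pool 2 (0.0902) or pool 4 (0.0547), without DC2 pool 1 (0.251) or pool 3 (0.131), with the pool as a fixed block (0.0649), without the filter (0.146), without the batch term (0.140) and on TLI libraries alone (0.0902). Within batch 1 of the TLI pools the log2 differences of Rab11a, Rab32 and Rab10 were -1.79, -2.995 and -1.70, and within batch 2 -0.84, -1.21 and -0.53, none of them called.

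Counted over all 12 comparisons of 2 subsets, calls were few. Between untreated DC2 and DC1a 3 of 54 Rab genes were called, Rab24 higher and Rab7b and Rab11a lower, where 1.91% of all genes were called, 0.867% as higher and 1.05% as lower. Between TLI DC2 and DC1a 5 were called, Rab24 higher and Rab7b, Rab11a, Rab32 and Rab10 lower, where 3.4% of all genes were, 2.1% as higher and 1.3% as lower. The median log2 difference of the Rab genes was 0.07 against 0.11 over all genes in the first and -0.19 against 0.02 in the second. Rab7b was the 1 Rab gene called between DC3 and DC2 in each treatment, where 0.837% of all genes were called in untreated (0.378% as higher) and 1.37% in TLI mice (0.439% as higher). No Rab gene was called by edgeR between untreated DC3 and DC1a, DC2 and DC1b or DC3 and DC1b, with 7, 10 and 5 at an unadjusted p under 0.05 and 3, 6 and 3 called by DESeq2. Of all genes 0.184%, 0.398% and 0.393% were called there, and 7.47%, 9.21% and 8.43% had an unadjusted p under 0.05. Nor was any between TLI DC1b and DC1a, DC3 and DC1a, DC2 and DC1b or DC3 and DC1b, with 12, 7, 5 and 3 at an unadjusted p under 0.05 and 2, 5, 3 and 3 called by DESeq2, where 1.42%, 0.75%, 0.214% and 1.11% of all genes were called and 13.6%, 10.6%, 10.4% and 11.9% had an unadjusted p under 0.05. DESeq2 also called more in the comparisons above, 8 between untreated DC2 and DC1a and 13 between TLI DC2 and DC1a.

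**Figure D4:**
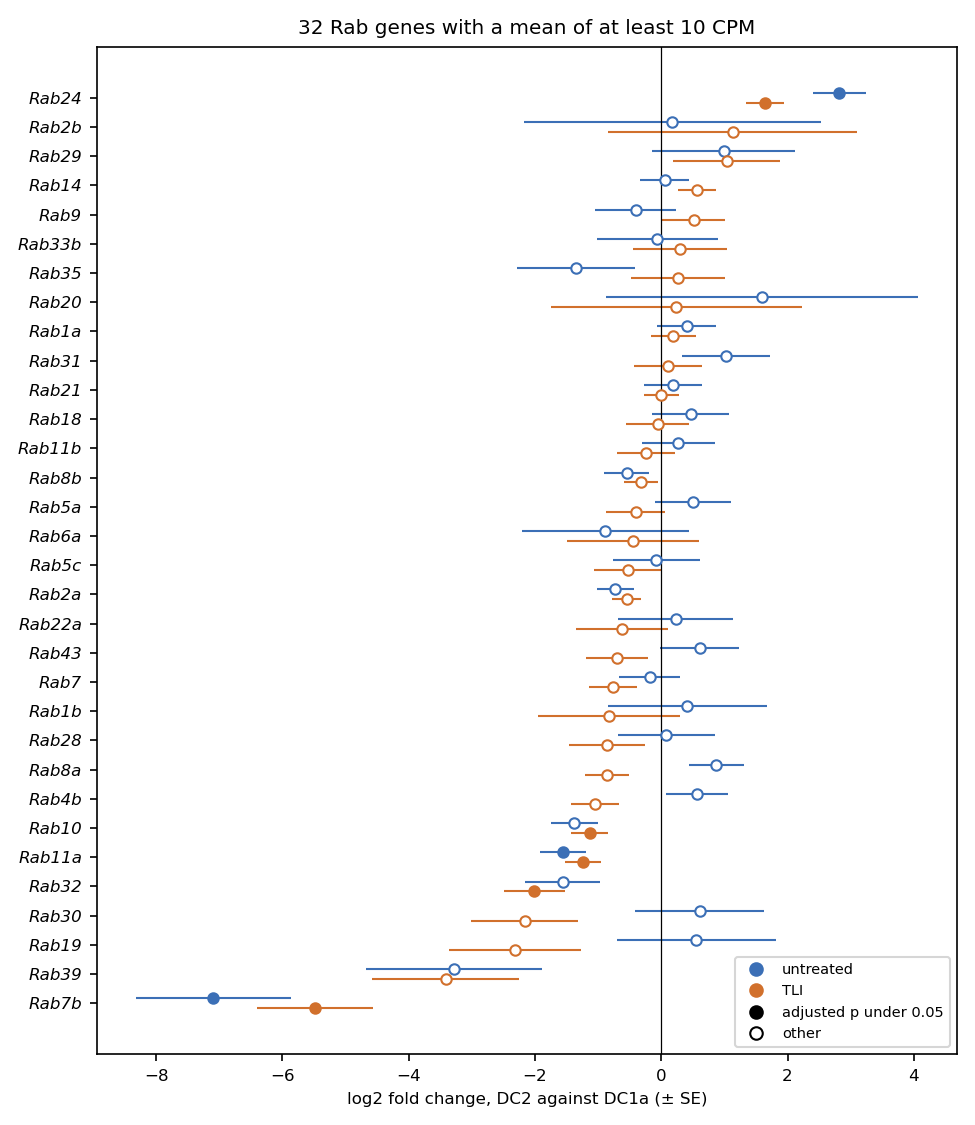
Fitted log2 fold change of DC2 against DC1a (bars, SE) in untreated (blue) and TLI mice (orange) for the 32 Rab genes with a mean of at least 10 CPM, sorted by the TLI value, filled where the adjusted p was under 0.05. Rab7b lies at -7.10 and -5.49 and Rab24 at 2.82 and 1.64, and most of the others lie within 2 log2 units of 0.

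Among 10 Rab genes known for antigen traffic in dendritic cells (Rab3b, Rab3c, Rab11a, Rab14, Rab22a, Rab27a, Rab34, Rab35, Rab39 and Rab43), 9 were tested and Rab11a was the one called between subsets, DC2 and DC1a, where 1.91% (untreated) and 3.4% (TLI) of all genes were called and its untreated call was lost without any 1 of the 4 libraries. Rab39, which acts in the maturation of phagosomes and in cross-presentation, had its lowest means in DC2, as Rab7b did, without passing the test. The gene, unlike Rab7b, had a mean in untreated DC1b (13.96 CPM) near that in untreated DC1a (14.89 CPM). It stood at 11.2 and 18.5 CPM in untreated DC1a, 24.4 and 15.5 in DC3, 23.4 and 4.52 in DC1b and 1.38 and 1.68 in DC2. TLI DC1a and DC3 lay at 14.4 to 34.9 and 9.91 to 36.7 CPM, TLI DC1b at 4.34 to 10.01 and TLI DC2 at 7.41, 0.144 and 0.157 CPM. DC2 against DC1a was -3.28 ± 1.40 (adjusted p = 0.321) in untreated and -3.42 ± 1.16 (adjusted p = 0.129) in TLI mice. The TLI DC2 library at 7.41 CPM was that of pool 1, which also held 2152 CPM of neutrophil and 44281 CPM of erythroid markers. Without it Rab39 was the 1 Rab gene called over the 4 TLI subsets.

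Rab43, a Golgi Rab with a part in cross-presentation by CD8+ dendritic cells, was high in 3 untreated subsets. It stood at 169 and 164 CPM in DC1a, 240.1 and 269 in DC2 and 139 and 264 in DC3, but at 36.3 and 39.3 CPM in DC1b. DC2 against DC1b was 2.75 ± 0.67 (adjusted p = 0.0967) and DC1b against DC1a -2.14 ± 0.65 (adjusted p = 0.180). TLI DC2 libraries held 77.5, 32.4 and 20.4 CPM, all below the untreated ones, a log2 difference of -1.94 ± 0.60 (adjusted p = 0.334). By the annotation 75.4% of its exon bases also belong to Gm45140, a gene on the same strand, whose own count was 0 to 54.3 CPM, so the split between these genes is uncertain. Rab14, which acts on early endosomes and phagosomes, lay at 67.5 to 207 CPM in all 23 libraries, with no call. Its TLI DC2 libraries, at 157, 202 and 163 CPM, were above every TLI DC1a library (77.4 to 135 CPM). They were also above both untreated DC2 libraries (85.6 and 125 CPM). Rab22a lay at 4.02 to 50.4, Rab35 at 1.72 to 70.3 and Rab27a at 0.111 to 15.05 CPM, with no call. Rab34 reached 3.74 CPM at most, Rab3c 0.399 and Rab3b 0.281 CPM, so that differences in the latter pair were not detectable at this depth.

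The second comparison set TLI against untreated mice within each subset. No Rab gene was called by edgeR in any of the 4 subsets, with 6 of 54 at an unadjusted p under 0.05 in DC1a, 9 in DC1b, 5 in DC2 and 2 in DC3. Of all genes 0.0102%, 0.413%, 0.0612% and 0.0255% were called, and 9.76%, 12.4%, 9.01% and 10.4% had an unadjusted p under 0.05. DESeq2 called 2, 5, 3 and 2 Rab genes, Rab37 and Rab4b in DC1a, Rab24, Rab32, Rab33b, Rab37 and Rab3a in DC1b, Rab3a, Rab3d and Rab43 in DC2, and Rab18 and Rab26 in DC3. Rab32 in DC1b came closest in edgeR. It stood at 134, 205, 229 and 191 CPM in TLI against 30.2 and 32.5 CPM in untreated DC1b, a log2 difference of 2.66 ± 0.59 (n = 4 and 2, adjusted p = 0.0598). In the same libraries the 8 monocyte and macrophage markers summed to 8623 to 25692 CPM in TLI against 3098 and 5123 CPM in untreated mice. Most of each TLI sum was Lyz2, at 7652 to 24132 CPM against 1634 and 2822 CPM in untreated mice. Ly6c2 of this list went the other way, at 170 to 825 CPM in TLI against 1253 and 2090 CPM in untreated mice. The plasmacytoid markers summed to at most 157 against at least 2386 CPM, and the part of either list was not tested. Rab24 had the opposite sign in DC1b, at 36.1 to 123 CPM in TLI against 272 and 305 CPM in untreated mice, -1.38 ± 0.35 (adjusted p = 0.103), and was called without TLI DC1b pool 3.

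Over the family most fitted differences between TLI and untreated mice were positive once batch was in the fit. The median log2 difference was 0.73 in DC1a, 0.54 in DC1b, 0.54 in DC2 and 0.18 in DC3, against medians over all genes of 0.15, 0.09, 0.02 and -0.05. Positive values were found for 40, 36, 37 and 30 of 54 Rab genes, against 10600, 10294, 9965 and 9517 of all 19597 genes tested. The summed Rab CPM, not adjusted for batch, went the other way in DC2, at 1892 to 2068 in TLI against 2481 to 2536 in untreated libraries. Its mean was higher in TLI mice in DC1a, DC1b and DC3, with ranges overlapping in DC1a and DC3. The 4 fitted comparisons share the batch term, which rests on the TLI pools alone. That term, batch 2 against batch 1, had a median log2 difference of -0.51 over the Rab genes, 40 of 54 being negative. Over all genes its median was -0.23. The values of the 4 fitted comparisons apply to batch 1, in which the TLI libraries carried the erythroid RNA, and not to batch 2. The test of whether the differences among subsets changed with TLI called 0 of 54 Rab genes and 0.0357% of all genes by edgeR, with 5 Rab genes and 7.82% of all genes at an unadjusted p under 0.05 and 0 called by limma.

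Between the batches of TLI mice edgeR called more Rab genes than in any comparison of subsets or treatment by the same fit. Between batch 2 and batch 1, 10 of 54 Rab genes were called, where 17.4% of all genes were, so that the share of the Rab genes lay near the background. Higher in batch 2 were Rab21 and Rab8b (2 genes, where 9.35% of all genes were higher), and lower were Rab4b, Rab24, Rab28, Rab43, Rab8a, Rab27b, Rab36 and Rab37 (8 genes, where 8.07% were lower). Rab4b showed the clearest difference at -1.99 ± 0.26 (adjusted p = 7.51e-05). It stood at 139.6 and 146 against 64.9 and 50.1 CPM in DC1a, 89.4 and 166 against 23.2 and 21.6 in DC1b, 77.8 against 16.4 and 31.8 in DC2 and 57.1 and 112 against 12.9 and 20.5 in DC3, so that every batch 2 library was below every batch 1 library of its subset. By the annotation 65.0% of its exon bases also belong to Gm21983, which had 0 counts throughout. Rab8a and Rab8b went opposite ways, -0.78 ± 0.23 (adjusted p = 0.0281) and 0.69 ± 0.19 (adjusted p = 0.0177). Rab28, of the cilium, was lower by -1.81 ± 0.42 (adjusted p = 0.00682), and Rab21, which moves integrins through early endosomes, was higher by 0.98 ± 0.25 (adjusted p = 0.0117). Erythroid RNA and the batch moved together, and their parts cannot be told apart.

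**Figure D5:**
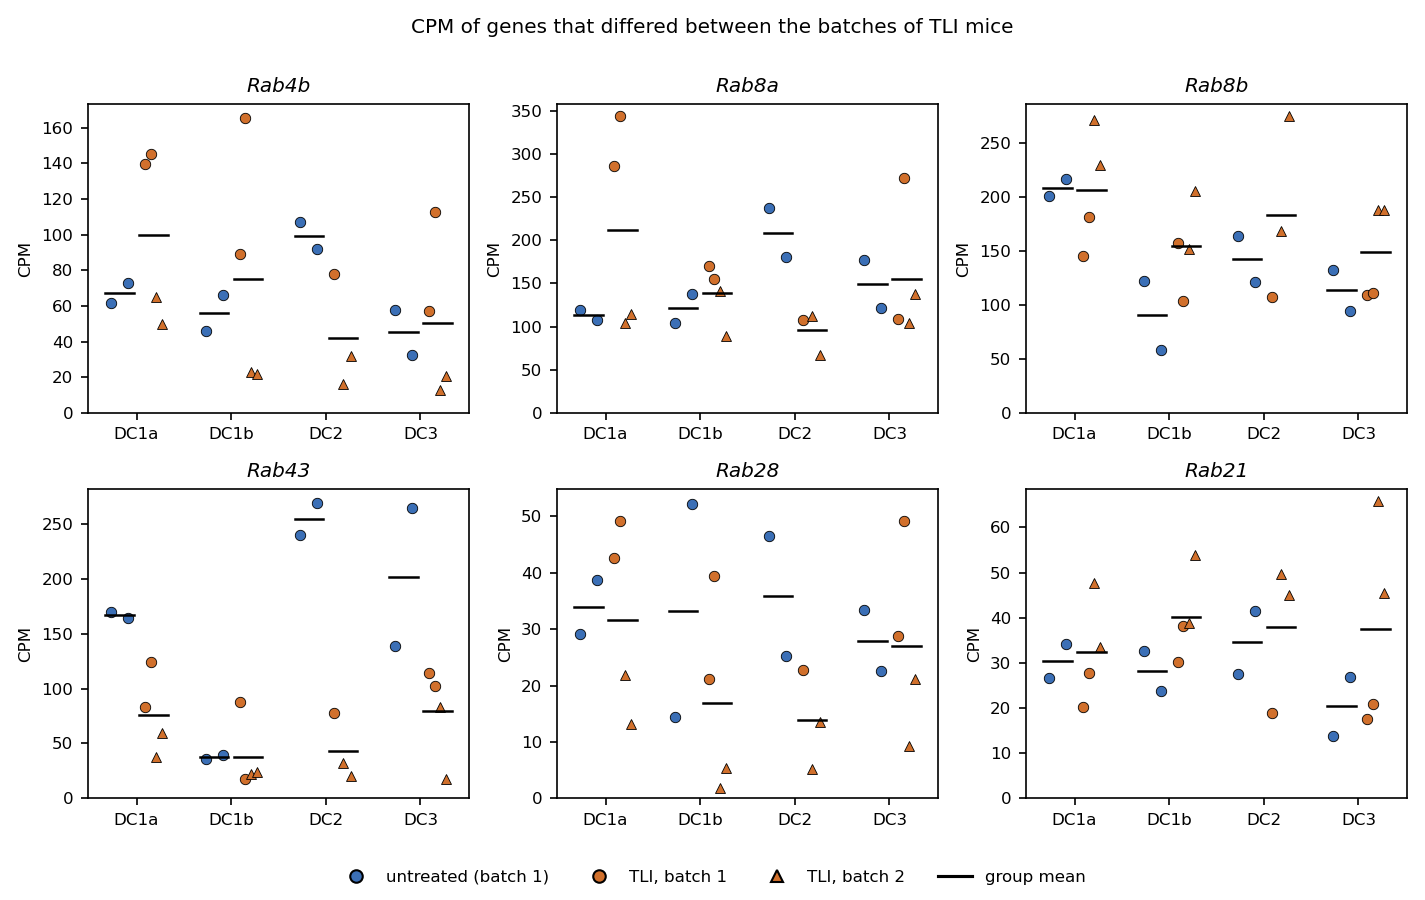
CPM of 6 Rab genes that differed between the batches of TLI mice, in every library by subset (blue circles untreated, orange circles TLI batch 1, orange triangles TLI batch 2, black bars group means). For Rab4b the triangles lie between 12.9 and 64.9 CPM and in each subset below the orange circles, and for Rab8b and Rab21 most triangles lie above them.

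Of the tested Rab genes 3, Rab25, Rab44 and Rab6b, had 50% or more of their summed CPM in 1 library, and others of narrow expression were less concentrated. Rab25, known from epithelial cells, stood at 17.2 CPM in untreated DC1b pool 2, which held 92.9% of its summed CPM, and at no more than 0.434 CPM elsewhere. Rab6b, a neuronal relative of Rab6a, had 54.8% of its summed CPM in untreated DC1b pool 1 (20.9 CPM). Rab44, a large Rab of mast cells and granulocyte precursors, had 67.5% in TLI DC1b pool 3 (8.84 CPM). That library had the highest sum of the 4 basophil and mast cell markers, 1637 CPM, of which Cpa3 made 1548 CPM. In untreated DC3 pool 1, where these markers summed to 760 CPM, Rab44 was at 0 CPM, and the part of such RNA was not tested. Rab23 had 42.8% in TLI DC1b pool 3 (19.9 CPM against at most 4.66 CPM elsewhere). Rab27b, of secretory granules, was highest in TLI DC3 pool 1 at 9.32 CPM (23.7% of its summed CPM), where the 5 NK cell markers summed to 2718 CPM. It also stood at 6.33 CPM in TLI DC1b pool 2, where these markers summed to 67.9 CPM. Rab3d was highest in TLI DC3 pool 2 at 25.5 CPM (20.5%), where the NK cell markers summed to 529 CPM, and lower in TLI DC3 pool 1 at 19.1 CPM. The part of NK cell RNA in these values was not tested. Rab37, known from mast cell granules, stood at 25.1 and 38.3 CPM in untreated DC2 but at 0 CPM in both untreated DC1a libraries, an edgeR adjusted p of 0.0832.

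A fixed list of genes that act on or with Rab proteins numbered 113, of which 107 were tested. It held exchange factors that load GTP, many with a DENN domain, and proteins that stimulate its hydrolysis, many with a TBC domain. It also held genes of Rab prenylation, GDP dissociation inhibitors and effectors recruited by Rab proteins. Over the 4 untreated subsets 3 were called, where 2.37% of all genes were, and over the 4 TLI subsets 3, where 3.22% were, and no pair of subsets held more than 2 calls. Tbc1d4, which inactivates Rab10, Rab8a and Rab14 and was named after its values were seen, was called in 7 of the 16 comparisons of 2 groups. It stood at 1634 and 1560 CPM in untreated DC2 against 276.5 and 333 in DC1a, 265 and 237 in DC1b and 177 and 61.8 CPM in DC3. In TLI mice it lay at 364, 229.8 and 386 CPM in DC2, 221, 263, 293 and 317 in DC1a, 175, 160.1, 154.5 and 238 in DC1b and 40.2, 50.5, 75.2 and 78.9 CPM in DC3. Untreated DC2 exceeded DC1a by a log2 fold change of 2.39 ± 0.41 (n = 2 and 2, edgeR adjusted p = 0.00455), where 1.91% of all genes were called. With batch in the fit, TLI DC2 fell below untreated DC2 by -2.48 ± 0.38 (n = 3 and 2, edgeR adjusted p = 0.0158), where 0.0612% were called. Dennd4a, an exchange factor for Rab10, was higher in untreated DC2 than in DC1a, at means of 314 and 79.2 CPM (1.99 ± 0.38, n = 2 and 2, edgeR adjusted p = 0.00934). For Tbc1d4 and Dennd4a no alternative fit is given here.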

How the data were processed

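RNA of sorted cells was amplified and sequenced by the authors, who trimmed reads, aligned them to GRCm38 and estimated transcripts. The submitters' processing notes name Trimmomatic, HISAT2, StringTie and DESeq2, without versions. The deposited values are estimated counts per gene as whole numbers, which were used as they stood. No source used here states that counting used strand. Symbols and exon lengths came from an annotation of GRCm38.

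Groups came from the labels. The 23 libraries were fitted together in edgeR 4.0.16 (R 4.3.3) with 8 groups and a batch term, TMM scaling and its filter on low counts, and tested by quasi-likelihood, with p-values adjusted over 19597 genes by Benjamini and Hochberg and called under 0.05. CPM use the TMM library sizes, and levels per length divide by kilobases of exon. The floor of 3 counts covers counting error only. Where nothing shows separate mice behind pools, p-values measure the spread between these pools. Genes named were those called over the 4 subsets or between treatments, the 5 highest per length and the antigen traffic list. Rab10, called in 1 pair of subsets but not over the 4, and other genes beyond these were named after their values were seen. The members and lists were chosen with earlier results of these data known.

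Alternatives were DESeq2 1.42.0, its size factors, no filter, no batch term, the pool as a fixed replicate block in edgeR or a random one in limma 3.58.1, 1 treatment alone, TLI pools of batch 1 alone, each library left out, and, chosen after the data were seen, TLI pools of batch 2 alone. Libraries of 1 pool come from the same mice. Their deviations from group means correlated at 0.0801 to 0.394 in TLI mice (20 of 21 pairs over 0.1) and at -0.0058 to 0.0159 in untreated mice. Batch was not removed from these deviations. The TLI values therefore include the difference between batches, which the untreated libraries of 1 batch do not have. With batch in the limma fit the consensus correlation within pools was 0.00267. The fitting code was tested on simulated data.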

Additional observations from a re-analysis of the deposited data

Results flagged for a closer look

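In 46 sets, each of 1 gene in 1 group of 4 libraries, 1 library stood apart from the rest in 6 (gap over range above Dixon's 95% critical value). The rule gives about 1 in 20 for independent normal values. These sets share libraries and hold counts, so that rate is only a rough guide. Rab10 in TLI DC1b was at 94.2 CPM in pool 1 and at 185 to 187 CPM in the others. Rab43 in TLI DC1b was at 87.5 CPM in pool 1 and at 17.6 to 24.4 CPM in the others. The pool 1 library also held the highest neutrophil sum, 23370 CPM, but pool 4 with 10208.5 CPM had Rab43 at 24.4 CPM. Gm45140, which shares exon bases with Rab43, was at 33.2 CPM in pool 1 and at 0 to 1.21 CPM in the others. The part of either was not tested. Rab34 in TLI DC1b was at 2.22 CPM in pool 2 and at most 0.150 CPM elsewhere in the group. The remaining results were at the floor of detection. Rab3b in TLI DC1a was at 0.129 CPM in pool 3, Rab3c in TLI DC1b at 0.132 CPM in pool 4 and Rab3c in TLI DC3 at 0.245 CPM in pool 1, each against 0 in the other libraries of its group. With the others at 0 the gap over range is 1 whatever the value.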

How the results depend on the processing

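No Rab gene's called difference changed sign under any alternative run. DESeq2's size factors left the counts of called Rab genes as they were in 19 of 19 comparisons, and leaving out 1 library in 111 of 138. The cause of the other shifts was not tested. Over the 4 subsets the count of called Rab genes, 2 in untreated and 2 in TLI mice, became 4 and 5 without the filter, 1 and 1 without the batch term, and 6 and 7 with the pool as a random replicate block in limma. In TLI mice it was 1 with the pool as a fixed replicate block, 1 fitted on TLI libraries alone, 0 in batch 1 and 1 in batch 2.

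DC2 against DC1a, with 3 calls in untreated and 5 in TLI mice, gave 1 and 3 without the batch term, 8 and 13 by DESeq2 and 8 in TLI mice with the random block. In TLI mice it gave 3 with the fixed block, 2 on TLI libraries alone, 0 in batch 1 and 1 in batch 2. For the untreated pairs DC1b against DC1a (1 call), DC3 against DC1a (0), DC2 against DC1b (0), DC3 against DC1b (0) and DC3 against DC2 (1), DESeq2 gave 8, 3, 6, 3 and 3 and the random block 4, 1, 2, 2 and 2. Fitted alone, untreated libraries gave 2, 1 and 0 for DC1b against DC1a, DC2 against DC1b and DC3 against DC2, no filter gave 1 for DC2 against DC1b, and no batch term 0 for DC1b against DC1a. For the TLI pairs in that order (0, 0, 0, 0 and 1 calls), DESeq2 gave 2, 5, 3, 3 and 6 and the random block 1, 2, 0, 0 and 2. No filter gave 1 for DC1b against DC1a and for DC2 against DC1b, TLI libraries alone and batch 2 each 1 for DC2 against DC1b, and batch 1 gave 0 for DC3 against DC2. For TLI against untreated mice (0 calls), DESeq2 gave 2, 5, 3 and 2 in DC1a to DC3, the random block 3 in DC1b and 1 in DC3, and no filter 1 in DC1b.

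Without 1 library each, the counts were 1 to 3 (untreated) and 1 to 4 (TLI) over the 4 subsets, 2 (untreated) and 2 to 6 (TLI) for DC2 against DC1a, 0 to 1 for untreated DC1b against DC1a and for DC2 against DC1b in either treatment, 1 (untreated) and 1 to 2 (TLI) for DC3 against DC2, and 0 to 1 for TLI against untreated mice in DC1b and DC2. With 2 untreated pools and 1 to 2 TLI pools per batch, differences of the size seen for Rab10, Rab11a and Rab32 lie near the threshold.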
